A study of Mus musculus with 10 samples.

Results

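Lysyl oxidases and lysyl hydroxylases, the enzymes that prepare and form the covalent crosslinks of collagen, were followed through 10 RNA sequencing libraries of mouse mammary fibroblasts and lobular carcinoma cells. The genes were taken by symbol from the table of 55486 genes: the 5 lysyl oxidases Lox, Loxl1, Loxl2, Loxl3 and Loxl4, and the 3 lysyl hydroxylases Plod1, Plod2 and Plod3. All 8 were found, each on 1 row. Lysyl hydroxylases act inside the cell, where they add hydroxyl groups to lysines of the growing collagen chain. Plod1 is known for lysines of the collagen helix, Plod2 for those of the telopeptides at the chain ends, and Plod3 also for adding sugars to hydroxylysine. Lysyl oxidases are secreted copper enzymes that oxidize lysines and hydroxylysines of collagen and elastin, after which crosslinks form between neighboring molecules. In breast tissue this crosslinking is known to stiffen the matrix around tumors, and fibroblasts are its usual source.

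Normal fibroblasts (NFs) came from mammary glands of mTmG mice on the FVB/n strain, 8 weeks of age, which express a red membrane protein in every cell until Cre turns it green. Cells of pooled animals that stained for none of EpCAM, CD31, CD45 and CD49f, a gate against epithelial, endothelial and blood cells, were sorted by the surface protein CD26 into CD26- NFs, left red, and CD26+ NFs, which were turned green by adenoviral Cre. CD26- NFs never met the virus, so its effect and that of the subset cannot be told apart. Tumor cells were the lines 13-MCB-17 and 10-SJK-221, grown from tumors of WapCre mice with floxed Cdh1 and a further floxed allele, in which the milk gene promoter Wap drives Cre in mammary epithelium. Gel 1 held CD26- and CD26+ NFs without tumor cells. Gels 2 and 3 held 13-MCB-17 and 10-SJK-221 alone, and gels 4 and 5 held both NF subsets with 13-MCB-17 and 10-SJK-221. After 7 days in collagen with basement membrane extract, cells were sorted by color. This gave 1 library each of CD26- and CD26+ NFs alone and 2 libraries each of CD26- NFs, CD26+ NFs and tumor cells in co-culture and of tumor cells alone.

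Libraries held 14142334 to 18408940 counts, and 3 counts, the most that an observed 0 allows, correspond to 0.163 to 0.212 CPM, which are counts divided by the total of their library. Fold changes of the tests use TMM scaling, which sets the level of most genes equal and can differ from a ratio of CPM. These limits and all counting intervals cover counting error only. The 8 fibroblast markers summed to 23320 to 74850 CPM in NF libraries and to 38.7 to 177 CPM in tumor libraries, and the 8 epithelial markers to 3909 to 5182 CPM in tumor libraries and 0.807 and 1.12 CPM in NFs alone. In co-cultured NFs the epithelial markers reached 115 to 317 CPM. Relative to the tumor cells of the same gel, the median marker gave a tumor RNA share of 1.94% and 2.9% in CD26- and CD26+ NFs of gel 4, and of 2.09% and 5.46% in gel 5. The fibroblast RNA share of co-cultured tumor cells was 0.0461% in gel 4 and 0.0965% in gel 5. Dpp4, which encodes CD26, did not exceed 0.771 CPM in any library. Its few counts still followed the subset label within each gel that held NFs. Gel 1 gave 0.281 CPM for CD26+ against 0 for CD26- NFs, gel 4 gave 0.771 against 0, and gel 5 gave 0.283 against 0.058. Most of these levels lie at or near the limit of detection, and this difference between the subsets was not tested. Because NFs without tumor cells came from 1 gel, their comparison with co-culture sets 2 gels against 1, and the animals behind each gel were not given, so p-values measure the spread between these libraries. In bulk RNA, fewer cells of a type and less RNA per cell cannot be told apart.

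Promoter windows were at hand for Plod1, Plod3 and Loxl4, 3 of the 8 genes, and are shown because Plod1 and Plod3 rose and Loxl4 fell in co-cultured tumor cells. Each runs from 250 bases before to 50 bases after the RefSeq start (GRCm38.p6), 5′ to 3′ on the gene's strand. Capitals mark ACGTG, the core of the hypoxia response element, and GGGCGG, the GC box, on either strand. The windows are chr4:147936727-147937026 (minus strand), chr5:136986769-136987068 (plus strand) and chr19:42612757-42613056 (minus strand).
Plod1: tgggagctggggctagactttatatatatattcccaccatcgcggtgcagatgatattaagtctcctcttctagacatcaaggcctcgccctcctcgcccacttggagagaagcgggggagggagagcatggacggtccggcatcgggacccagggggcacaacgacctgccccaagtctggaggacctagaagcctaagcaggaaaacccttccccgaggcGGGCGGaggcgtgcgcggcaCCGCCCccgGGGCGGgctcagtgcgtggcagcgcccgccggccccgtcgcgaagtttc
Plod3: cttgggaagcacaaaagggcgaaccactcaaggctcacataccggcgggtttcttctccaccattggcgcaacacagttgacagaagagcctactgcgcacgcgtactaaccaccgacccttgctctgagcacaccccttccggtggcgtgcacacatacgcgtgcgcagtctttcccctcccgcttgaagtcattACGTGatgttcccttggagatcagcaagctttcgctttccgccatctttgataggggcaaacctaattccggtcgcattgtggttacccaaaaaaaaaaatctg
Loxl4: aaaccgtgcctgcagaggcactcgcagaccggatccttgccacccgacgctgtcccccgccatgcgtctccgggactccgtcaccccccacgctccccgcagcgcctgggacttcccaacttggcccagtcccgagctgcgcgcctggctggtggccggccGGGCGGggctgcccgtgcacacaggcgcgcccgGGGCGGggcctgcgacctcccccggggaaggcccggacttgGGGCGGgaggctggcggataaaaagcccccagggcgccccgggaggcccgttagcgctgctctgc

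GGGCGG occurred 3 times in the Plod1 window, 3 times in the Loxl4 window and not in the Plod3 window. Of 32851 such windows of all genes, 35.7% held it at least once. ACGTG occurred 1 time, in the Plod3 window, and 19.6% of all windows held it. TATAAA, the TATA box, was searched on both strands too and occurred 1 time, in the Plod1 window, against 13.6% of all windows. Sites of these motifs did not overlap in the windows printed. These are matches of letters and say nothing of binding.

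The genes lie on separate chromosomes except for a pair on chromosome 9 (GRCm38). Lox (ENSMUSG00000024529) lies on chromosome 18 from 52516067 to 52529867, Loxl1 (ENSMUSG00000032334) on chromosome 9 from 58287738 to 58313186, and Loxl2 (ENSMUSG00000034205) on chromosome 14 from 69609068 to 69695834. Loxl3 (ENSMUSG00000000693) lies on chromosome 6 from 83034173 to 83052562 and Loxl4 (ENSMUSG00000025185) on chromosome 19 from 42593982 to 42612813. Plod1 (ENSMUSG00000019055) lies on chromosome 4 from 147909753 to 147936767, Plod2 (ENSMUSG00000032374) on chromosome 9 from 92542223 to 92608428, and Plod3 (ENSMUSG00000004846) on chromosome 5 from 136987019 to 136996648. All are annotated as protein coding. Exons of Loxl3 overlap Htra2 over 11.62% of their length, those of Plod3 overlap Znhit1 and Mir702 over 11.91%, those of Plod2 overlap Gm38391 over 6.42% and those of Loxl2 overlap Gm27177 and Mir6950 over 5.7%. Reads in those stretches cannot be assigned without knowing whether strand was used in counting.

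**Figure D1:**
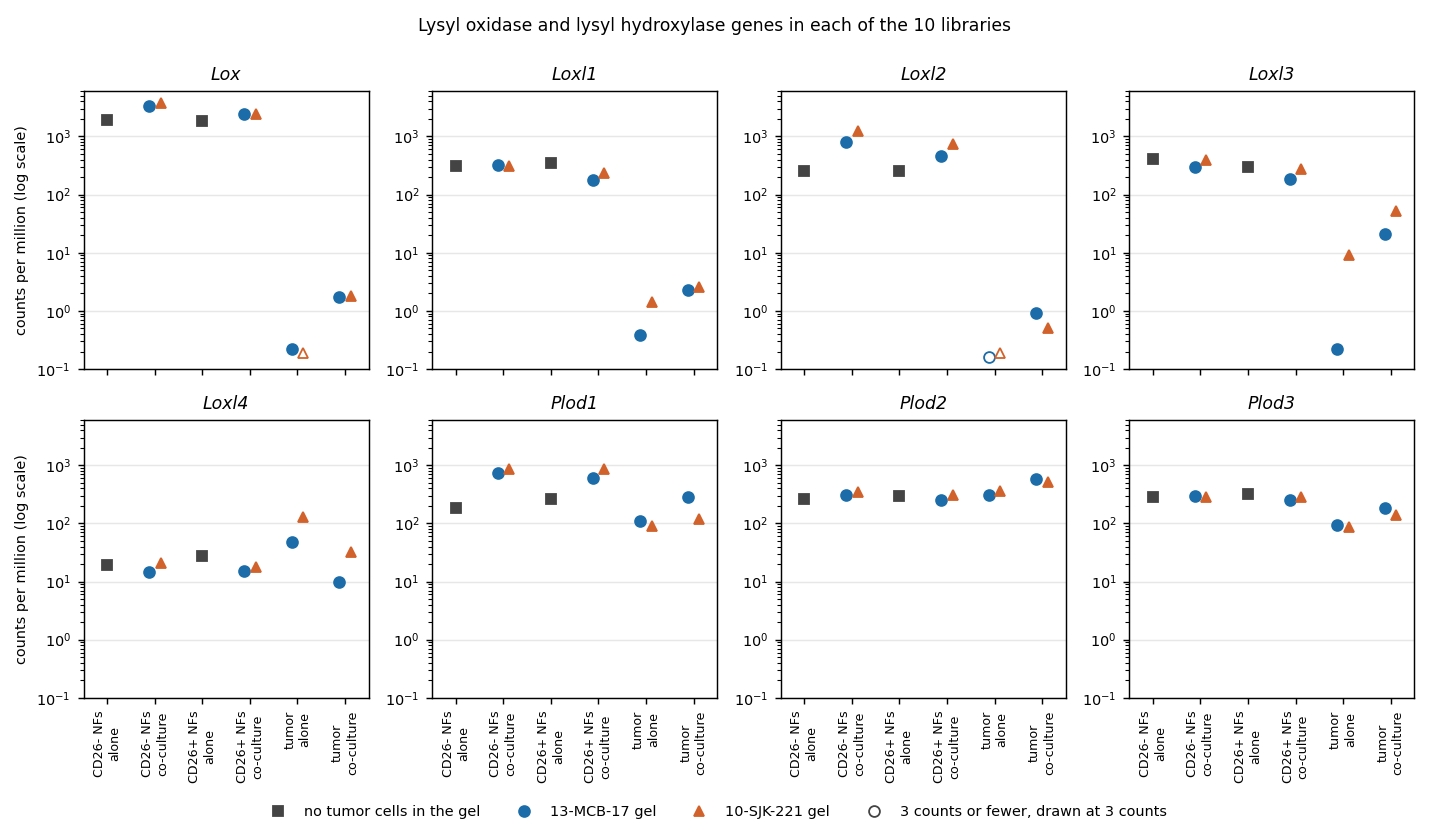
CPM on a log scale (y) for each of the 8 genes in the 6 groups (x), 1 point per library, with color and shape for the tumor line of the gel. Lox, Loxl1 and Loxl2 sit orders of magnitude lower in every tumor library than in NFs, while Plod2 lies between 257 and 574 CPM in all 10 libraries.

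The make-up of both families differed between fibroblasts and tumor cells, although all 3 hydroxylases were present in both. Levels were compared between genes as RPKM, which divides CPM by exonic length in kilobases. In NF libraries the lysyl oxidases summed to 607 to 1202 RPKM, of which Lox made 62.8% to 73.9%. In tumor libraries they summed to 8.15 to 32.9 RPKM. Loxl4 made 98.1% and 92.7% of that in 13-MCB-17 and 10-SJK-221 alone, whereas Loxl3 made 56.2% and 55.6% in co-culture. The order below Lox also changed in NFs: Loxl1 was next in NFs alone, with 15.1% and 17.8%, and Loxl2 was next in each of the 4 co-cultured NF libraries, with 12.1% to 19%. Loxl4 stayed lowest in every NF library, at 0.337% to 1.07%.

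Lysyl hydroxylases differed less in sum, with 137 to 255 RPKM in NFs and 93.7 to 189 RPKM in tumor cells. Plod3 was the highest of them in NFs alone, with 45.3% and 43.4% of the summed RPKM in CD26- and CD26+ NFs. In co-cultured NFs Plod1 was the highest, with 46.5% to 51%. Plod2 was the highest in all 4 tumor libraries, with 56.3% to 67.9%.

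**Figure D2:**
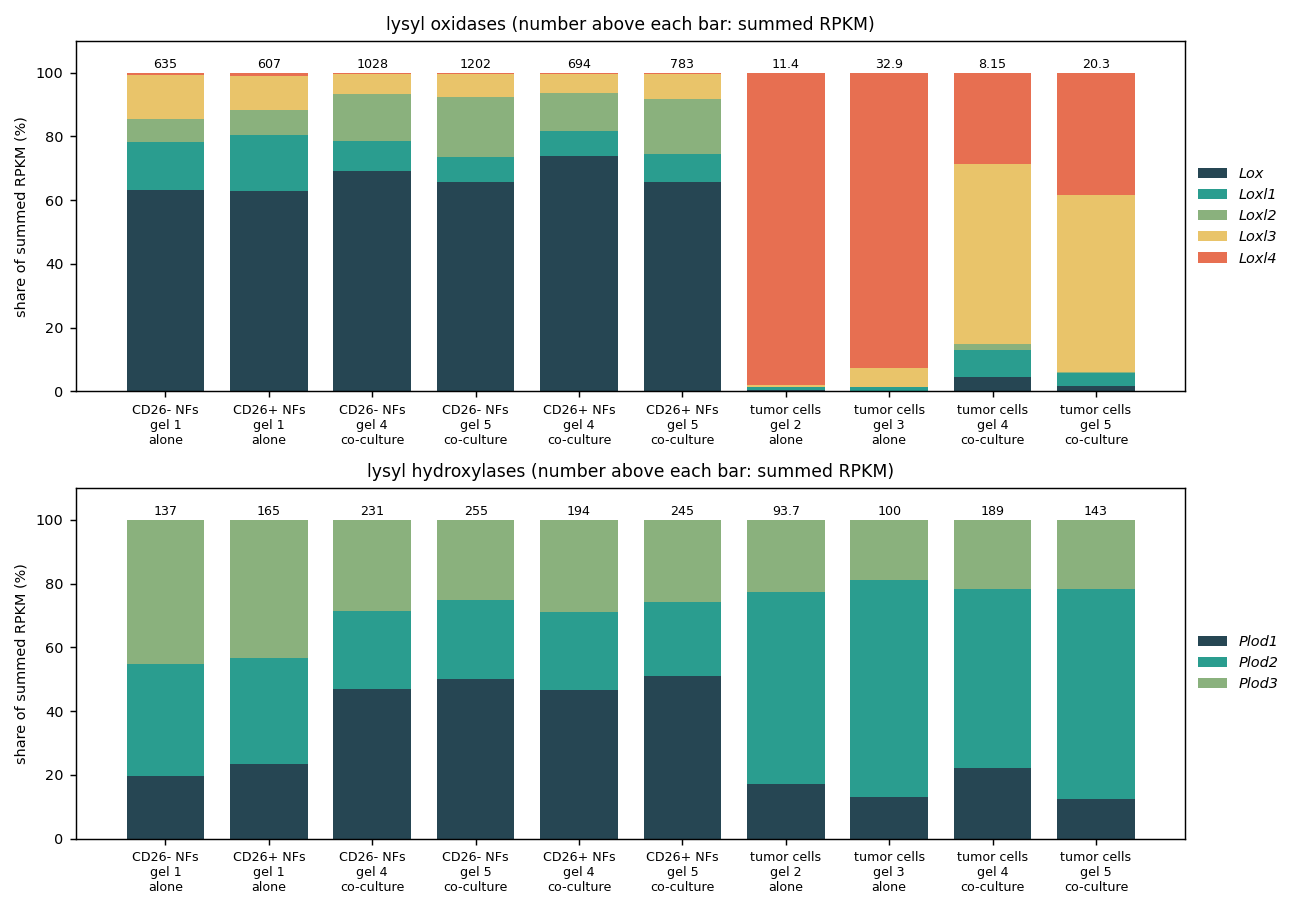
Share of each gene in the summed RPKM of its family (y, percent) for the 10 libraries (x), with the summed RPKM printed above each bar. Lox fills at least 62.8% of every NF bar, Loxl4 and then Loxl3 fill most of the tumor bars, and Plod1 widens from at most 23.3% in NFs alone to at least 46.5% in co-cultured NFs.

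To ask which cell type carried each enzyme, NFs were first compared with tumor cells where either grew alone. Of the 8 genes, 6 were higher and 1 was lower in NFs by edgeR at an adjusted p-value under 0.05, against 28.4% of 17048 genes tested higher and 27.1% lower. Without Lox and Loxl2, which reached the filter on low counts in neither tumor library, 4 of the other 6 were higher and 1 was lower. Lox, the founding lysyl oxidase, stood at 1916 CPM in the CD26- and 1821 CPM in the CD26+ library of gel 1, against 0.217 CPM (4 counts) in 13-MCB-17 and 0 counts in 10-SJK-221. From the summed counts this is a 15970-fold ratio (95% exact interval 6236 to 58600). Loxl2, which also acts on collagen IV of basement membranes, had 251 and 256 CPM in the NF libraries and 1 count in each tumor line, a 4323-fold ratio (95% exact interval 1196 to 35700). Both genes could differ in this direction only, since the tumor libraries lay at or near the limit of detection.

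Loxl1, best known for elastic fibers, had 315 and 356 CPM in CD26- and CD26+ NFs alone and 0.380 and 1.40 CPM in 13-MCB-17 and 10-SJK-221 alone (log2 fold change 8.72, SE 0.446, adjusted p = 1.53e-06). The Loxl1 value was 8.06 without 13-MCB-17 alone and 9.85 without 10-SJK-221 alone. Loxl3 had 402 and 295 CPM in NFs, but 0.217 CPM in 13-MCB-17 and 9.1 CPM in 10-SJK-221 (6.39, SE 1.11, adjusted p = 0.00154). Its tumor lines differed from each other far more than its NF libraries did, and its value was 10.67 without 10-SJK-221 alone and 5.41 without 13-MCB-17 alone. Loxl4 went the other way, with 19.2 and 27.2 CPM in NFs against 47.2 and 128 CPM in tumor cells (-1.79, SE 0.573, adjusted p = 0.0277). That call was lost in 5 of 10 fits that left out 1 library: either NF library of gel 1, the 10-SJK-221 library of gel 3, or the CD26+ NF library of gel 4 or 5 (adjusted p = 0.0658 to 0.169), with a value of -0.95 without 10-SJK-221 alone.

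Among the hydroxylases, Plod1 had 182 and 259 CPM in the CD26- and CD26+ libraries of gel 1, against 108 and 89.5 CPM in 13-MCB-17 and 10-SJK-221 alone (log2 fold change 1.26, SE 0.384, adjusted p = 0.0222). The Plod1 call was lost without the CD26+ NF library of gel 1 (1.11, adjusted p = 0.0737) or without 10-SJK-221 alone (1.1, adjusted p = 0.0835). Plod3 had 280.05 and 323 CPM in NFs and 95.6 and 85.6 CPM in tumor cells (1.86, SE 0.195, adjusted p = 8.43e-05). Plod2 had 258 and 296 CPM in NFs and 305 and 368 CPM in tumor cells, a difference that did not pass (-0.15, SE 0.181, adjusted p = 0.512). Of 8 immune, endothelial and pericyte markers tested, Cd68 was lower in NFs alone (-5.25, adjusted p = 0.000372). Rgs5, a pericyte marker with 9.25 and 6.11 CPM in NFs against 0 and 1 counts in tumor cells, was called higher. Their part in the values of the 8 genes was not tested.

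Within the co-culture gels, again 6 of the 8 genes were higher in NFs and 1 was lower, against 27.7% and 24.2% of all genes tested. Higher genes made 53.3% of all calls there, or 43.3% when libraries were scaled by their totals, which moved the median of all genes by -0.19 (log2) here and by -0.12 between the cell types grown alone. Lox (log2 fold change 10.91, SE 0.426, adjusted p = 6.89e-07), Loxl2 (10.29, SE 0.475, adjusted p = 1.26e-06) and Loxl1 (6.91, SE 0.389, adjusted p = 3.11e-06) remained the genes with the widest gap between the cell types. Loxl3 was 3.17 higher on the log2 scale (SE 0.887, adjusted p = 0.0166), a call lost without the CD26+ NF library of gel 4 or 5 or the tumor library of gel 4 (adjusted p = 0.054 to 0.0773), and it stood at 3.94 without the tumor library of gel 5. Plod1 and Plod3 were higher in NFs by 2.12 (SE 0.363, adjusted p = 0.00151) and 0.99 (SE 0.171, adjusted p = 0.00155), and the value of Plod1 was 2.88 without the tumor library of gel 4. Plod2 was now the gene that was lower in NFs (-0.64, SE 0.153, adjusted p = 0.00823), except when the tumor library of gel 4 was left out (adjusted p = 0.0674). Loxl4 did not pass (-0.12, SE 0.489, adjusted p = 0.861), and its order turned between the gels. In gel 4 it had 14.6 and 15.2 CPM in CD26- and CD26+ NFs against 9.9 CPM in tumor cells, and in gel 5 20.5 and 17.6 CPM against 32.8 CPM. Its value ran from -0.73 to 0.963 with 1 library left out. Of 8 immune, endothelial and pericyte markers tested, 6 were higher in co-cultured NFs than in co-cultured tumor cells, of which 3 reached the filter in no co-cultured tumor library, and their part was not tested.

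NFs were next compared between co-culture and growth alone. Lox, Loxl2 and Plod1 rose, none of the 8 fell, and the other 5 did not pass the test. Over all 15013 genes tested, 25.9% rose and 22.9% fell, so 3 of 8 is near the background. Plod1 had the highest fitted value of the 8, which differed from that of Loxl2 by less than either SE. It went in CD26- NFs from 182 CPM alone to 732 CPM beside 13-MCB-17 and 861 CPM beside 10-SJK-221, and in CD26+ NFs from 259 CPM to 609 and 847 CPM (log2 fold change 1.85, SE 0.226, adjusted p = 0.000145). Every co-cultured library lay above both libraries of NFs alone, by 2.35 to 4.74 times within a subset. Loxl2 rose in CD26- NFs from 251 CPM alone to 812 and 1232 CPM in gels 4 and 5, and in CD26+ NFs from 256 CPM to 453 and 729 CPM (1.65, SE 0.297, adjusted p = 0.0015). The Loxl2 groups did not overlap either, with ratios of 1.77 to 4.9 within a subset, and its levels were higher beside 10-SJK-221 than beside 13-MCB-17 in both subsets.

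Lox stood at 1916 and 1821 CPM in CD26- and CD26+ NFs alone, while the co-cultured libraries of CD26- NFs reached 3397 and 3770 CPM and those of CD26+ NFs 2451 and 2457 CPM (log2 fold change 0.71, SE 0.182, adjusted p = 0.00999). The call was lost without the CD26- NFs of gel 1 (0.46) and without gel 5 (adjusted p = 0.0563). The Lox value was 0.73 without the CD26+ NF library of gel 5, which held the highest tumor RNA share, in a fit chosen after seeing the data. The part of tumor RNA in these rises was not tested. Tumor RNA at the median marker share would supply no more than 0.0965 CPM of Lox, 0.028 CPM of Loxl2 and 8.18 CPM of Plod1 in these libraries, and at the share of the highest single marker 0.313, 0.115 and 36 CPM.

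The other 5 genes did not pass in co-cultured NFs. Loxl1 had 315 CPM in CD26- NFs alone and 323 and 306 CPM in co-culture, against 356 CPM and then 175 and 231 CPM in CD26+ NFs (log2 fold change -0.38, SE 0.199, adjusted p = 0.144). Without the CD26- NFs of gel 1 this became a call (-0.77, adjusted p = 0.016), and without the CD26+ NFs of gel 1 it was 0.049 (adjusted p = 0.895). Loxl3 spanned 186 to 400.1 CPM in co-culture against 402 and 295 CPM in NFs alone (-0.23, SE 0.198, adjusted p = 0.372), and its value was 0.031 without gel 4. Loxl4 had 14.6 to 20.5 CPM in co-culture and 19.2 and 27.2 CPM alone (-0.39, SE 0.212, adjusted p = 0.153). Plod2, with 257 to 342 CPM in co-culture (0.17, SE 0.16, adjusted p = 0.403), and Plod3, with 254 to 299.6 CPM (-0.05, SE 0.14, adjusted p = 0.797), overlapped with NFs alone.

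**Figure D3:**
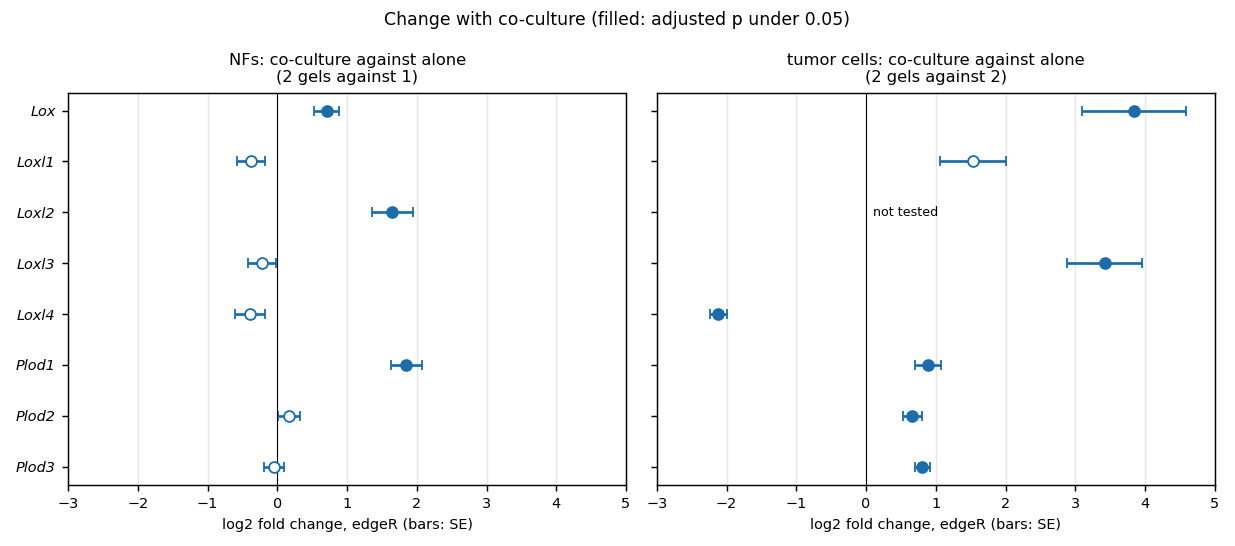
Log2 fold change with co-culture (x, bars are SE) for each of the 8 genes (y) in NFs, over 2 gels against 1, and in tumor cells, over 2 gels against 2, with filled points past an adjusted p-value of 0.05. In NFs the filled points are Lox, Loxl2 and Plod1; in tumor cells Loxl4 is the one filled point below 0, at -2.12, and the filled point of Lox rests on 4 and 0 counts in tumor cells alone.

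Other genes of the collagen pathway moved in both directions in co-cultured NFs. Of 15 genes for collagen hydroxylation, glycosylation and folding, 7 rose and 3 fell (median log2 fold change 0.4, against 0.02 over all genes tested). Colgalt2, which adds galactose to hydroxylysine, is one of the 7 but reached the filter on low counts only in co-culture and could not have fallen, and without it 6 of 14 rose. It had 4 and 1 counts in CD26- and CD26+ NFs alone, 4 and 14 counts in co-cultured CD26- NFs and 32 and 53 counts in co-cultured CD26+ NFs of gels 4 and 5. The steepest rise of the others was that of P4ha2, a catalytic subunit of prolyl 4-hydroxylase (1.86, SE 0.166, adjusted p = 2e-05). Its sister subunit P4ha1 (1.83, SE 0.149, adjusted p = 1.2e-05) and their partner subunit P4hb (1.41, SE 0.171, adjusted p = 0.000139) are named after their values were seen. P4ha3, a further catalytic subunit (-0.71, SE 0.201, adjusted p = 0.0163), and Crtap, a partner of prolyl 3-hydroxylase (-0.7, SE 0.147, adjusted p = 0.0036), fell the most.

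Of 12 genes for lysyl oxidase activation, scaffolding and copper supply, 4 rose and 4 fell (median 0.15). Tll2, a protease of the family that cleaves pro-lysyl oxidase, is one of the 4 but likewise reached the filter only in co-culture, with 1 and 5 counts alone and 12 to 63 counts in co-culture. Without it 3 of 11 rose and the median was -0.25. Fn1, the fibronectin gene, rose the most of these (1.03, SE 0.21, adjusted p = 0.003). Pcolce, which enhances procollagen cleavage, fell from 882 and 1251 CPM in CD26- and CD26+ NFs alone to 212 to 292 CPM in co-culture (-2.09, SE 0.16, adjusted p = 8.49e-06). Efemp2, the fibulin that binds Lox during elastic fiber assembly, fell from 935 and 861 CPM to 199 to 308 CPM (-1.74, SE 0.152, adjusted p = 1.75e-05).

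Of 6 fibrillar substrates, 4 fell, 1 rose and 1 did not pass (median -0.82). Col3a1, the collagen III chain, fell from 35673 and 34521 CPM in CD26- and CD26+ NFs alone to 5484 to 13081 CPM in co-culture (-1.95, SE 0.257, adjusted p = 0.000233), and Col1a2 fell by 0.99 (SE 0.202, adjusted p = 0.00299). Col5a2, a collagen V chain, was the one that rose (0.96, SE 0.197, adjusted p = 0.00305). Thus Lox, Loxl2 and Plod1 rose in the same libraries in which most of their fibrillar substrates fell. Markers of immune, endothelial and pericyte cells moved with this comparison: the 10 genes summed to 17.1 and 24 CPM in NFs alone and to 92.2 to 137.5 CPM in co-cultured NFs, mostly Cd68 and Mcam, and 4 of 7 tested rose, or 3 of 6 without Cdh5, which reached the filter only in co-culture. Ptprc, the CD45 gene, did not exceed 0.127 CPM in any library, while Cd68 (2.84), Pecam1 (3.35) and Mcam (4.02) of the same list rose. The gate by CD45 and CD31 was set when the fibroblasts were isolated, before the gels. The part of such cells in these results was not tested.

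**Figure D4:**
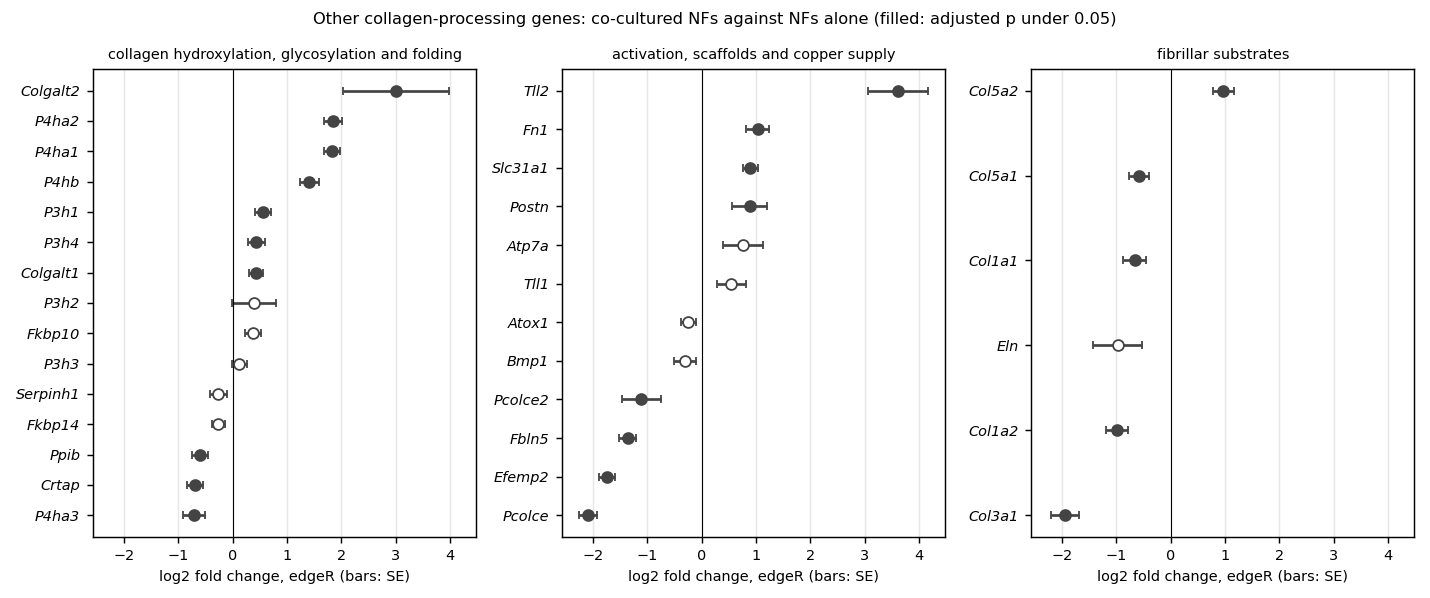
Log2 fold change of co-cultured NFs against NFs alone (x, bars are SE) for 33 other genes of the collagen pathway in 3 lists (y), with filled points past an adjusted p-value of 0.05. P4ha1, P4ha2 and P4hb sit between 1.41 and 1.86, while Pcolce, Efemp2 and Col3a1 sit between -2.09 and -1.74. Colgalt2 and Tll2 reached the filter on low counts only in co-culture.

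CD26+ and CD26- NFs were compared over the 3 gels that held both, using the same 6 libraries. In the edgeR fit without a term for the gel, none of the 8 genes passed the threshold, although 4 had an unadjusted p under 0.05. Of all 15013 genes, 25% had such a p, and 12.6% had one with a lower value in CD26+ NFs. DESeq2 called 2 of the 4. By edgeR's adjusted p-value, 3.93% of all genes were higher and 3.6% lower in CD26+ NFs. Scaling by library totals moved the median of all genes by 0.155 (log2) towards CD26+ NFs and the share of higher genes among calls from 52.2% to 81%. The 4 were lysyl oxidases, each with a value below 0 under either scaling: Loxl3 (log2 fold change -0.7, SE 0.189, adjusted p = 0.0537), Lox (-0.55, SE 0.167, adjusted p = 0.0775), Loxl1 (-0.52, SE 0.19, adjusted p = 0.131) and Loxl2 (-0.68, SE 0.26, adjusted p = 0.141). Loxl3 was lower in CD26+ NFs in each gel, with 295 against 402 CPM in gel 1, 186 against 300.2 CPM in gel 4 and 277 against 400.1 CPM in gel 5. With the gel as a replicate block, which pairs the subsets of 1 gel, Loxl3 passed (-0.71, adjusted p = 0.0127). Lox was close between the subsets in gel 1, where it was 1.05 times lower in CD26+ NFs, and was 1.39 and 1.53 times lower in CD26+ NFs of gels 4 and 5.

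Loxl1 and Loxl2 were close between the subsets in gel 1, with CPM ratios of CD26+ over CD26- NFs of 1.13 and 1.02. The TMM factors of these libraries over all 10, 1.016 for CD26+ and 0.932 for CD26- NFs, would lower both ratios. In co-culture Loxl1 was lower in CD26+ NFs by 1.84 and 1.33 times and Loxl2 by 1.79 and 1.69 times in gels 4 and 5. Loxl1 passed the threshold when gel 1 was left out (-0.79, adjusted p = 0.024). Loxl4, Plod1, Plod2 and Plod3 had log2 fold changes of -0.05 to -0.23 with adjusted p-values of 0.387 to 0.901 by edgeR, and Loxl4 and Plod1 turned to 0.11 and 0.08 when scaled by library totals. Markers moved with this comparison. Of 8 fibroblast markers Col1a2 and Pdgfrb were lower in CD26+ NFs (median log2 fold change -0.45), and of 6 fibrillar substrates 1 was lower (median -0.67). Of 7 epithelial markers tested Cldn3 was higher (median 0.84), and of 7 immune, endothelial and pericyte markers tested Kdr was higher (2.11, SE 0.409, adjusted p = 0.0191). The part of these cells in the lysyl oxidase values was not tested.

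The response to tumor cells was then compared between the subsets. The interaction of subset and culture called none of the 8 genes by edgeR or by DESeq2, against 0.228% of 16231 genes higher and 0.148% lower, and 1 gene, Loxl1, had an unadjusted p under 0.05, as did 7.79% of all genes tested. Loxl2 (-0.85, SE 0.448, adjusted p = 0.722) and Loxl1 (-0.83, SE 0.321, adjusted p = 0.514) had the widest differences on the log2 scale. The 8 estimates, from -0.18 to -0.85, share the single library of each subset alone, and that of Loxl3 turned to 0.077 without the CD26+ NFs of gel 4 and to 0.086 without the CD26- NFs of gel 5.

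In tumor cells, 7 of the 8 genes could be tested between co-culture and growth alone. Loxl3, Plod1, Plod2 and Plod3 rose and Loxl4 fell, where 10.8% of 13197 genes tested rose and 11.5% fell. Lox was called higher too, but passed the filter on low counts only through its co-cultured libraries and had to differ. Loxl4 had 47.2 CPM in 13-MCB-17 alone and 9.9 CPM in co-culture, and 128 CPM in 10-SJK-221 alone and 32.8 CPM in co-culture (log2 fold change -2.12, SE 0.121, adjusted p = 3.37e-05). The fall was 4.77 and 3.91 times in the 2 lines, and NF RNA would supply no more than 0.0184 CPM of what remained at the median marker share and 0.12 CPM at the highest. Loxl3 rose from 0.217 CPM (4 counts) to 21.1 CPM in 13-MCB-17 and from 9.1 to 52.1 CPM in 10-SJK-221 (3.42, SE 0.532, adjusted p = 0.00287). The fibroblast RNA share would supply 0.112 and 0.327 CPM of Loxl3 there. These are ratios of CPM of 97.1, from 4 counts, and 5.72. Its log2 fold change was 6.51 when either library of 10-SJK-221 was left out and 2.51 when either of 13-MCB-17 was.

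Lox went from 0.217 CPM (4 counts) in 13-MCB-17 and 0 counts in 10-SJK-221 to 1.75 and 1.77 CPM (log2 fold change 3.84, SE 0.74, adjusted p = 0.00752). NF RNA at its measured share would supply 1.35 CPM of Lox in gel 4 and 3.01 CPM in gel 5, as much as was measured or near it. Its log2 fold change was 2.92 or 2.93 without a 10-SJK-221 library, and 7.71 without a 13-MCB-17 library, a value set by the prior count of the fit because 10-SJK-221 alone held 0 counts. In gel 4 the single fibroblast markers put that share anywhere from 0% to 0.802%, and the highest would supply 23.5 CPM of Lox, 5.07 CPM of Loxl2 and 2 CPM of Loxl1. Loxl2, too low to be tested, had 2 counts over both tumor libraries alone and 25 counts over both in co-culture, a 12.1-fold ratio of CPM (95% exact interval 3.02 to 105.5). Its 0.905 and 0.513 CPM in gels 4 and 5 stand beside a supply of 0.292 and 0.946 CPM. Loxl1, with 0.38 and 1.4 CPM alone and 2.26 and 2.57 CPM in co-culture, missed the threshold (1.53, SE 0.472, adjusted p = 0.0507), passed it when scaled by library totals (adjusted p = 0.0283) or without a filter (adjusted p = 0.00225), and 0.115 and 0.259 CPM of it would be supplied at the median share.

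**Figure D5:**
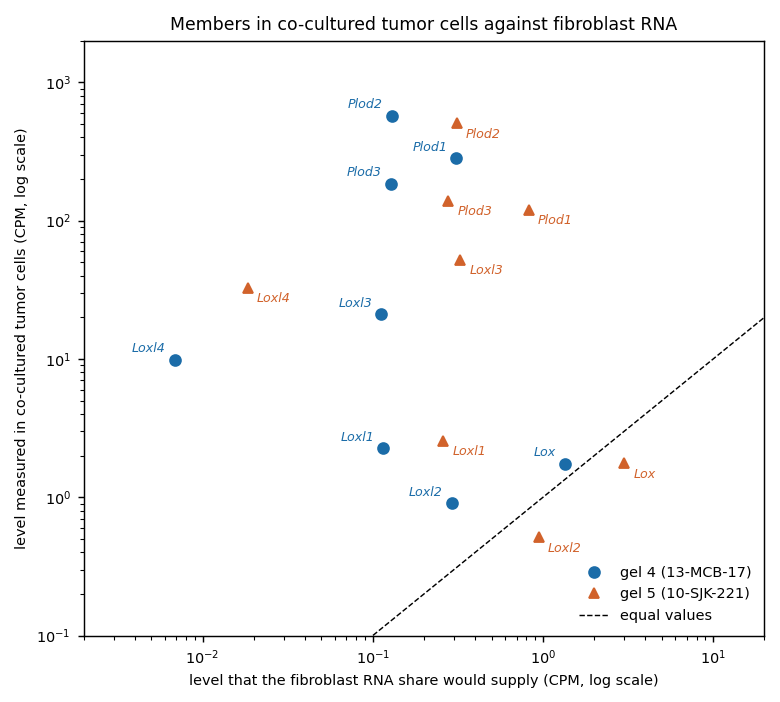
Level of each of the 8 genes in co-cultured tumor cells (y, CPM, log scale) against the level that the median marker share of fibroblast RNA would supply (x, CPM, log scale), with the dashed line at equal values. Lox in both gels and Loxl2 in gel 5 lie near or below the line, while Loxl3, Loxl4 and the Plod genes lie far above it.

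The 3 hydroxylases rose together in tumor cells. Plod3 went from 95.6 to 185 CPM in 13-MCB-17 and from 85.6 to 139.5 CPM in 10-SJK-221 (log2 fold change 0.81, SE 0.105, adjusted p = 0.00133). Plod2 went from 305 to 574 CPM and from 368 to 507 CPM (0.66, SE 0.133, adjusted p = 0.00906). Plod1 went from 108 to 282 CPM in 13-MCB-17 and from 89.5 to 120.3 CPM in 10-SJK-221 (0.89, SE 0.193, adjusted p = 0.0129). All 3 were above their own line grown alone in both lines, by 1.94 and 1.63 times for Plod3, 1.88 and 1.38 times for Plod2 and 2.62 and 1.34 times for Plod1. Fibroblast RNA would supply no more than 0.824 CPM of any of them at the median marker share and 5.38 CPM at the highest. The 3 calls were lost whenever 1 of the 4 tumor libraries was left out, with adjusted p-values of 0.053 to 0.857 and with 0.42 for Plod1 without a 13-MCB-17 library and 1.34 or 1.35 without a 10-SJK-221 library, in fits that took the spread from the NF libraries. With nothing left out and all 10 libraries in the fit, Plod1 did not pass either (adjusted p = 0.0707). Loxl3 and Loxl4 kept theirs.

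Among the other genes in co-cultured tumor cells, 5 of 12 tested for hydroxylation, glycosylation and folding rose and 1 fell (median log2 fold change 0.52, against 0.01 over all genes). P3h4, a prolyl 3-hydroxylase family protein (2.68, SE 0.649, adjusted p = 0.0203), and P3h1 (1.69, SE 0.238, adjusted p = 0.00188) had the largest values. P3h4 went from 0.76 to 7.18 CPM in 13-MCB-17 but had 3 and 2 counts in 10-SJK-221, whereas P3h1 was higher in both lines. Ppib, a folding enzyme, fell (-0.81, SE 0.112, adjusted p = 0.00173). Of 9 tested for activation, scaffolding and copper supply, 4 rose and 1 fell (median 0.29). Bmp1, the main protease that activates lysyl oxidase, rose from 184 to 647 CPM in 13-MCB-17 and from 92.5 to 249.8 CPM in 10-SJK-221 (1.6, SE 0.125, adjusted p = 0.00014). Postn, the periostin gene, is another of the 4 and had 3 and 9 counts in 13-MCB-17 and 10-SJK-221 alone, at or under the filter, so that it could hardly have fallen, and 31.3 and 22.4 CPM in co-culture. All 5 fibrillar substrates tested were called higher, of which Col3a1 and Col5a2 reached the filter only in co-culture, with Col3a1 at no more than 32.5 CPM in tumor cells and at least 5484 CPM in NFs. The NF RNA share in these libraries was measured on Col3a1 and other fibroblast genes, so these rises are not independent of it. Other markers moved too. Of 8 epithelial markers Cldn3, Cldn4 and Cldn7 fell (-0.6 to -0.75), with sums of 3909 and 5182 CPM alone and 4181 and 4863 CPM in co-culture for 13-MCB-17 and 10-SJK-221. Of 6 immune, endothelial and pericyte markers tested, Mcam rose (2.22), and Cd68 (-1.69, adjusted p = 0.000147) and Kdr (22 and 15 counts alone, 0 and 2 in co-culture, which reached the filter only alone) fell, and the 10 genes summed to 310.6 and 99.8 CPM alone and 110.3 and 53.8 CPM in co-culture. Their part in the changes of the 8 genes was not tested.

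Between the tumor lines, over both cultures, 2 of the 7 genes tested were higher in 10-SJK-221 and 1 was lower, against 5.93% and 8.54% of all genes tested. Higher genes made 41% of all calls, or 56.2% when scaled by library totals. Loxl3 was higher by 2.05 on the log2 scale (SE 0.515, adjusted p = 0.0333), which was lost with RLE scaling (adjusted p = 0.0643) and in DESeq2 (adjusted p = 0.26), and without either tumor library grown alone (1.27, adjusted p = 0.124 and 0.133), and it stood at 5.26 without either co-cultured one. Loxl4 was higher in 10-SJK-221 (1.49, SE 0.119, adjusted p = 0.000205), and lost the call without either co-cultured tumor library (1.37, adjusted p = 0.0675 and 0.0687). Plod1 was lower in 10-SJK-221 (-0.83, SE 0.193, adjusted p = 0.0244) and lost the call whichever tumor library was left out (adjusted p = 0.123 to 0.88), with -0.34 where a co-cultured library was left out and -1.26 or -1.27 where one grown alone was. It was also lost with all 10 libraries in the fit (-0.8, adjusted p = 0.143). Plod3 (-0.36, SE 0.105, adjusted p = 0.0544, but 0.0174 without a filter on low counts), Loxl1 (0.69, SE 0.464, adjusted p = 0.369), Lox (-0.38, SE 0.623, adjusted p = 0.735) and Plod2 (-0.03, SE 0.133, adjusted p = 0.904) did not pass. Loxl2, on chromosome 14, had 1 and 1 counts alone and 16 and 9 counts in co-culture, which leaves nothing to compare between lines. Markers differed between the lines as well. In 10-SJK-221, Cd68 (-1.53, adjusted p = 0.000309) and Mcam (adjusted p = 0.0109) were lower of 6 immune, endothelial and pericyte markers tested. Of 8 epithelial markers Krt8 was higher (0.55) and Cldn4 lower (-0.42), and of 6 fibroblast markers tested Col1a2 was higher and Col1a1, Col3a1 and Pdgfra were lower. Their part in the values of the 8 genes was not tested.

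Whether NFs and tumor cells differed in their response was tested as the interaction of cell type and culture over all 10 libraries. Lox (log2 difference of changes, NFs minus tumor cells, -3.09, SE 0.649, adjusted p = 0.013), Loxl1 (-1.82, SE 0.509, adjusted p = 0.039) and Plod3 (-0.87, SE 0.249, adjusted p = 0.0429) passed, so 3 of 8 were lower and 0 higher, or 2 of the other 7 without Lox. Those 7 still hold Loxl2, with 1 count in each tumor line alone, where its change could also only be upward. The background was 8.15% lower and 12% higher of 17048 genes. Of 8 markers tested in each list, 6 fibroblast markers were lower, and 8 epithelial and 3 immune, endothelial and pericyte markers were higher, and their part was not tested. For Lox the value rests on tumor libraries with 4 and 0 counts grown alone and on levels near the NF RNA supply, and it was -7.0 without 13-MCB-17 alone, set by the prior count against 0 counts, and -2.2 without 10-SJK-221 alone. The calls for Loxl1 and Plod3 were each lost in 9 of 10 fits that left out 1 library, with adjusted p-values up to 0.0954 and 0.137. Loxl1 ranged from -1.16 without 13-MCB-17 alone to -2.94 without 10-SJK-221 alone. Loxl3 (-3.22, SE 1.2, adjusted p = 0.0954) and Loxl4 (1.67, SE 0.756, adjusted p = 0.157) had wide differences that did not pass here, but did so with terms for subset, line and culture (-3.7, adjusted p = 0.00181, and 1.72, adjusted p = 0.0022) and without a filter (adjusted p = 0.000616 and 0.0142). Loxl3 also passed without 10-SJK-221 alone (-7.5, adjusted p = 0.000958) and without 13-MCB-17 alone (-2.24, adjusted p = 0.0445). Loxl4 was 0.83 without 10-SJK-221 alone, and passed without the tumor library of gel 5 (2.75, adjusted p = 0.0276). Plod1 (0.85, adjusted p = 0.269) passed without the tumor library of gel 4 (1.62, adjusted p = 0.0221).

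Genes whose log2 CPM ran most alike over the 10 libraries differed among the 8. This likeness is a description over 9321 genes, and the libraries share gel, depth and cell type. Col5a2 was closest to Lox (Pearson r = 0.9997), and 669 genes had an r above 0.95 with it. Pdgfrb, the fibroblast receptor, was closest to Loxl1 (r = 0.9973), and Iglon5 to Loxl2 (r = 0.9984). Serpinh1, the collagen chaperone, was closest to Plod3 (r = 0.9921), and Ndrg2 to Plod1 (r = 0.99). Abcg2 led for Loxl3 (r = 0.9805), Evl for Plod2 (r = 0.9227) and Psmd1 for Loxl4 (r = 0.9055), and for the last 2 members no gene reached 0.95.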

How the data were processed

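Bulk RNA sequencing of 10 libraries in 6 groups was analyzed. The authors deposited raw read counts per gene for all libraries without normalization. The submitters' processing notes name HISAT2 2.2.1 and GRCm38. Which program counted reads, whether it used strand and which annotation it took are not given in the sources used here. Of 55486 gene IDs, 99.53% were found in GENCODE M21, which gave positions and exonic lengths. A line without a gene held 0 counts and was left out.

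CPM was scaled to the library total. Tests were quasi-likelihood F tests of edgeR 4.0.16 (R 4.3.3) after filterByExpr and with TMM scaling. P-values were adjusted by Benjamini-Hochberg over all genes tested and called under 0.05. SE is the log2 fold change divided by the square root of F. Comparisons of cell types and their interaction with culture used all 10 libraries in 6 groups. NF comparisons used the 6 NF libraries, with subset and culture as terms or, for their interaction, 4 groups. Tumor comparisons used the 4 tumor libraries with line and culture as terms. The share of RNA from the other cell type was the median, over markers with at least 50 CPM in that type and under 1% of it in the library's own type grown alone, of CPM relative to the same gel's other cell type. Of 8 markers each, 7 fibroblast and 6 epithelial markers were kept. The most alike genes were taken by Pearson r of TMM-scaled log2(CPM + 1) among genes with a mean of at least 10 CPM.

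Named genes were all 8 members in each comparison, up to 2 highest and 2 lowest called genes of each list, and the most alike genes. The members and lists were chosen with earlier results of these data known. Libraries of 1 gel came from the same culture, so the labels' gel number pairs them. The change from gel 4 to gel 5 correlated over 9329 genes (r = 0.3 between the NF subsets, 0.215 and 0.105 between CD26- or CD26+ NFs and tumor cells), though the gel also marks the tumor line. Alternatives were RLE scaling, no filter, DESeq2 1.42.0, the study's added criterion of an absolute log2 fold change above 2, scaling by library total, other model terms, the gel as a block, and leaving out libraries. Leaving out only the CD26+ NFs of gel 5, and scaling by library total outside the cell type comparisons, were chosen after seeing the data.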

Additional observations from a re-analysis of the deposited data

Results flagged for a closer look

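The response to co-culture differed between NFs and tumor cells, by the test of the interaction in edgeR, for 3 of the 8 genes. One of them, Lox, held 4 and 0 counts in tumor cells alone, where its change could only be upward, which leaves 2 of the other 7. Loxl2, among those 7 and not called, had 1 count in each tumor line alone, so its change there could also only be upward. The log2 difference of changes (NFs minus tumor cells) was -3.09 for Lox, -1.82 for Loxl1 and -0.87 for Plod3. Over all 17048 genes tested, 8.15% were lower and 12% higher in this sense. The calls for Loxl1 and Plod3 were each lost in 9 of 10 fits that left out 1 library, and Lox ran from -7.0 to -2.2. In gels 4 and 5, co-cultured tumor cells held 185 and 139.5 CPM of Plod3 beside an NF RNA supply, at the median marker share, of 0.128 and 0.278 CPM. They held 2.26 and 2.57 CPM of Loxl1 beside 0.115 and 0.259 CPM, and 1.75 and 1.77 CPM of Lox beside 1.35 and 3.01 CPM. No group held enough libraries for a search for single libraries that stand apart.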

How the results depend on the processing

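Of 764 values of the 8 genes under alternatives, 657 kept their direction and their side of the threshold, 70 lost a call, 18 gained one and 19 turned their sign. None of the values that turned sign belonged to a gene called in that comparison. The study's criterion of an absolute log2 fold change above 2 left 4 genes called between NFs and tumor cells alone, against 4899 of all 17048 genes tested. It left 1 in the interaction of cell type and culture (1629 of 17048 over all genes) and 0 in co-cultured NFs (2047 of 15013). In co-cultured tumor cells it left 3 (418 of 13197), and between the tumor lines 1 (278 of 13197). Without a filter, the interaction called 5 genes and CD26+ against CD26- NFs 1, and terms for subset, line and culture also gave 5 for the interaction. For CD26+ against CD26- NFs, DESeq2 called 2 genes (Lox and Loxl3), and the gel as a replicate block called 1 (Loxl3). The block changed no other call of the 8 genes in the 3 comparisons it was fitted to.

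Leaving out 1 library or gel gave 1 to 3 genes for the interaction of cell type and culture, 0 to 1 for CD26+ against CD26- NFs, 3 in every case for co-cultured tumor cells and 1 in every case for the tumor lines. Lox is among the genes counted for co-cultured tumor cells and, with Loxl2, for NFs against tumor cells alone, where the filter fixed their direction, so these counts say nothing of stability for them. Where this left a tumor group with 1 library, that library was assumed to vary like the NF libraries. Loxl4 in co-cultured NFs against co-cultured tumor cells turned to 0.121 with terms for subset, line and culture and to 0.045 with the gel as a replicate block, and ranged from -0.73 to 0.963 with 1 library left out. Other uncalled values that crossed 0 on leaving out libraries were Loxl4 (-0.268 to 0.153) and Plod1 (-0.296 to 0.098) for CD26+ against CD26- NFs, and Loxl1 (-0.772 to 0.049), Loxl3 (-0.537 to 0.031), Plod2 (-0.039 to 0.383) and Plod3 (-0.222 to 0.125) for co-cultured NFs. Scaling by library total turned Loxl4 (0.106) and Plod1 (0.082) for CD26+ against CD26- NFs and Plod2 (0.044) for the tumor lines. Leaving out libraries also turned Loxl3 (-0.573 to 0.086) for the interaction of subset and culture and Plod2 (-0.215 to 0.193) for the tumor lines.

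Counts over all genes moved by more than 1.5 times in places. CD26+ against CD26- NFs went from 1130 to 17 without gel 5 and to 192 with the fold criterion. The interaction of subset and culture went from 61 to 18 without a filter, 97 in DESeq2, 395 with the block, 123 when scaled by library total and 0 to 30 with 1 co-cultured library left out. Co-cultured tumor cells went from 2942 to 1574 in DESeq2, 1511 with all 10 libraries in the fit, 216 to 708 with 1 library left out and 418 with the fold criterion. The tumor lines went from 1910 to 2917 without a filter, 945 in DESeq2, 861 with all 10 libraries, 274 to 337 with 1 library left out and 278 with the fold criterion. The interaction of cell type and culture went from 3439 to 2163 without the CD26- NFs of gel 4. The fold criterion took it to 1629, and the cell type comparisons from 9458 to 4899 alone and from 8839 to 3999 in co-culture. It took co-cultured NFs from 7325 to 2047. The cause was not tested.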
